A study of Mus musculus with 4 samples.

Results

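The cells described here are the sorted lung cells of E16.5 mouse embryos (embryonic day) in which Wt1 mRNA was detected, compared between Myrf mutants and Cre controls. A cell barcode was a member if it held at least 1000 detected genes, at most 15% mitochondrial UMIs (unique molecular identifiers, each counting as 1 captured transcript), under 2 Sftpc UMIs per 10000 UMIs and at least 1 UMI of Wt1. Of 9586 deposited barcodes, 8733 passed the quality limits, 6744 also passed the Sftpc limit, and 1997 of these were Wt1-positive. Control library 1 held 126 Wt1-positive barcodes, control library 2 held 988, mutant library 1 held 178 and mutant library 2 held 705. Values in groups of 4 below follow that order.

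The study asked what the transcription factor Myrf does in the mesothelium of the developing lung. The labels give a cross of Myrf Fl/Fl; R26TdTomato/R26TdTomato mice with Wt1creERT2; Myrf Fl/Fl mice, in which every embryo would carry floxed Myrf, and they do not say how the alleles of the Cre controls differed from those of the mutants. Pregnant mice received tamoxifen at E12.5, the embryos' lungs were assigned to a genotype by their look and later by PCR, and at E16.5 TdTomato-positive, DAPI-negative cells from pools of 3 to 5 lungs per genotype were profiled with the 10x 3' V3 kit. Because Cre was driven from the Wt1 gene, TdTomato marks cells that used Wt1 at the time of tamoxifen and their descendants, whether or not they still make Wt1. Whether libraries with the same genotype were made from separate pools is not given in the labels, so p-values here measure only the spread between these libraries.

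The mesothelium is the flat epithelium that covers the lung and lines the body cavity. Its cells carry uroplakins, keratins and mucins at their surface, secrete signals such as Fgf9 to the mesenchyme below, and depend on the zinc finger transcription factor Wt1. In several organs mesothelial cells can leave the surface and become fibroblasts or smooth muscle, whose contractile proteins are largely controlled by serum response factor (SRF) and its partner myocardin. Myrf is made as a membrane-bound precursor whose cut N-terminal part enters the nucleus.

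Wt1 chose the members, so its level is given as a description. Wt1-positive barcodes made up 48.1, 57.2, 45.8 and 16.1% of the barcodes past both limits. With every barcode thinned to 10000 UMIs and shallower ones left out (47, 289, 32 and 813 barcodes), the shares were 39.5, 46.8, 21.6 and 9.99%. Exact Clopper-Pearson intervals of the unthinned shares (95%, counting error only) were 41.9 to 54.3%, 54.8 to 59.6%, 40.7 to 50.9% and 15.1 to 17.3%. Mutant library 2 was lowest in both counts, and the mutant libraries differed from each other by more than the control libraries did. Within the members, summed Wt1 stood at 144, 138, 44.6 and 59.1 UMIs per 1000000 UMIs (CPM). The median Wt1-positive barcode held 4, 2, 2 and 1 Wt1 UMIs, and 13.5, 30.7, 34.8 and 65.4% of them held exactly 1. The mutant members therefore sat closer to the limit of the rule than the control members, and values at higher limits are given below.

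Depth and background varied between libraries. Median UMIs per Wt1-positive barcode were 33941.5, 20778.5, 52005.5 and 21254, and the UMI sums behind the comparison ran from 4477788 to 22846592 per library. A Wt1 UMI was also found in 6 of 53 barcodes with endothelial markers (11.3%, median depths of 11435 to 68254 UMIs). It was present too in 969 of the 1880 barcodes that the Sftpc limit removed from control library 2 (51.5%, median 10181 UMIs). Those 1880 barcodes held Upk3b at 537 CPM and Wt1 at 67.2 CPM, against 735 and 84.4 CPM in the kept barcodes of that library. Whether their Wt1 is background was not tested. Without the Sftpc limit, 131, 1957, 181 and 710 barcodes would be Wt1-positive, so the limit removed members mostly from control library 2. In the other libraries that limit removed 20, 23 and 66 barcodes. The nearest barcodes inside and outside it stood at 1.61 and 2.07, 1.998 and 2.004, 1.79 and 2.43, and 1.96 and 2.27 Sftpc UMIs per 10000. Across libraries 9 barcode sequences were shared, of which 1 was Wt1-positive in both. Where the Sftpc limit in control library 2 touches a result, the result is given also with Sftpc-rich barcodes kept and with only barcodes free of Sftpc UMIs.

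Against the labelled cell type, the 9 mesothelial markers other than Wt1 (Upk3b, Upk1b, Msln, Lrrn4, Krt19, Bnc1, Muc16, Cldn15 and Gpm6a) summed to 3204 and 2232 CPM in the controls and 146 and 119 CPM in the mutants. The 8 smooth muscle markers (Acta2, Tagln, Myh11, Cnn1, Actg2, Myl9, Smtn and Lmod1) summed to 423 and 684 CPM in the controls and 6700 and 4047 CPM in the mutants. The members are therefore called by their rule, Wt1-positive, and not mesothelial. Epithelial markers besides Sftpc summed to between 8.82 and 9.62 CPM, immune markers to between 3.21 and 30.0 CPM, and endothelial markers to 113, 61.1, 56.4 and 35.3 CPM. Erythroid markers summed to 103, 14.6, 1167 and 166 CPM, and their part in the results was not tested.

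Summed over Wt1-positive barcodes, 610 of 14563 tested genes differed between mutant and control (4.19%; edgeR quasi-likelihood test, two-sided, Benjamini-Hochberg adjusted p under 0.05). Of these, 188 rose in the mutants (1.29%) and 422 fell (2.9%), and 2719 genes had an unadjusted p under 0.05. The median log2 change over all tested genes was 0.02. Of the 12 largest falls named below 10 belonged to the mesothelial identity list, and the 12 largest rises included desmin, smooth muscle actin, calponin and transgelin. The gene lists were chosen with earlier results of these data known, so counts of their members are descriptions. A sum over barcodes does not tell fewer cells of a type from less RNA per cell, so shares of barcodes follow after the sums. The number of calls rose to 1073 without control library 2 and to 1240 without mutant library 1, and was 609 and 489 without control library 1 and mutant library 2.

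Myrf, on chromosome 19 from 10208272 to 10240748 (mm10), stood at 128, 76.8, 25.2 and 14.4 CPM. Both mutant libraries lay below both controls, with a log2 change of -2.30 ± 0.33 (SE; edgeR adjusted p = 0.0221, n = 2 libraries per group). A UMI of Myrf was still found in 66.9 and 26.5% of the mutant members, against 88.9 and 68.6% in the controls. After thinning, the shares in members were 77.6, 55.4, 22.1 and 12.1%. Among Wt1-zero barcodes, unthinned, a Myrf UMI was present in 17 of 136 barcodes in control library 1 and in 19.6, 23.2 and 7.62% in the other libraries. The labels do not say which exons are floxed, and tags from the 3' end of a transcript outside the deleted part do not check the deletion.

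**Figure D1:**
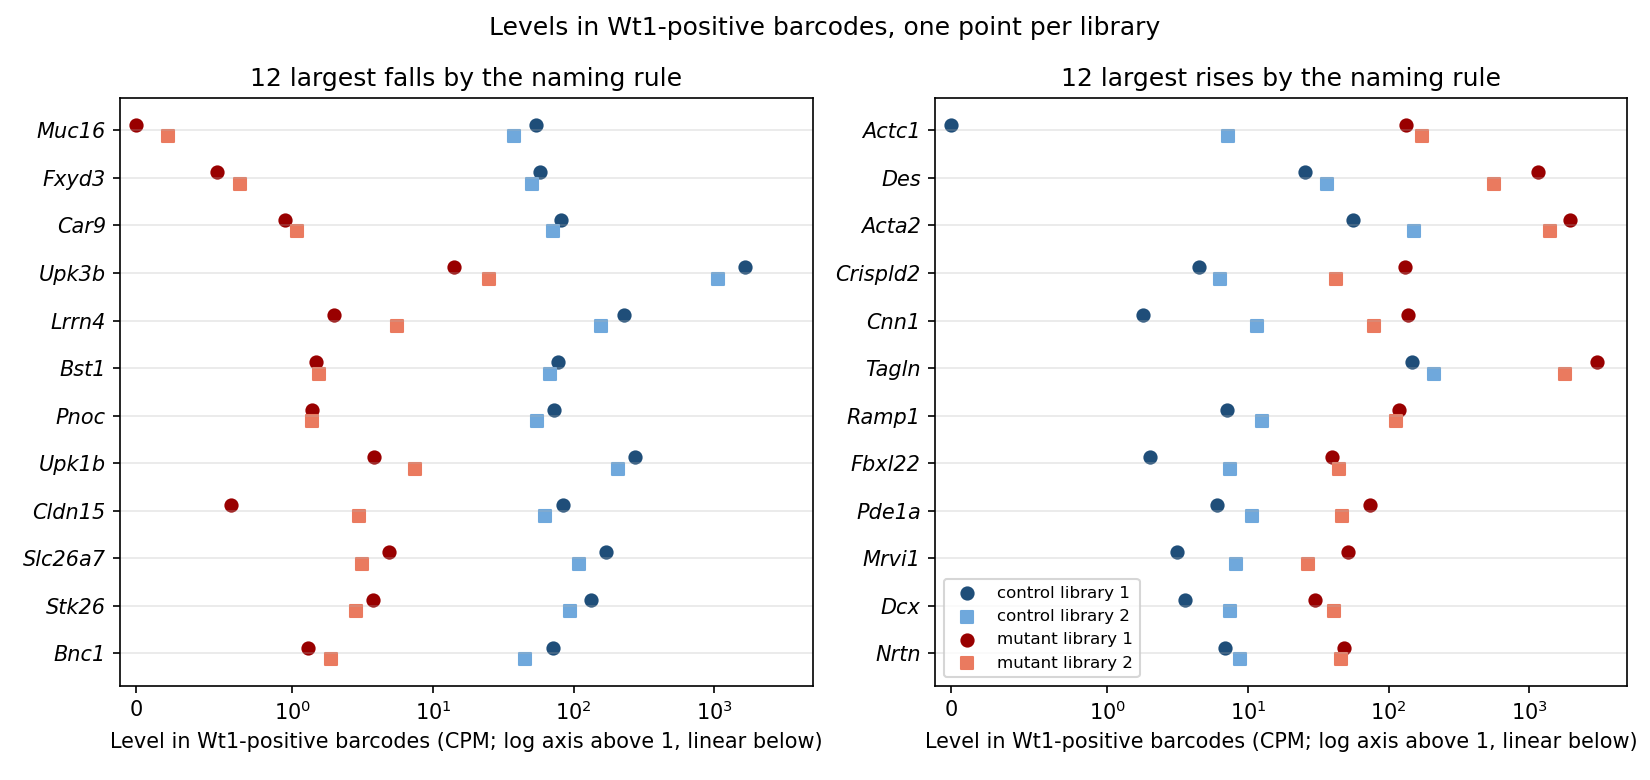
Level of the 12 largest falls (left) and 12 largest rises (right) among genes chosen by the naming rule, in CPM on an axis that is logarithmic above 1 and linear below, with 1 point per library. The naming rule required both mutant libraries to lie on the same side of both controls; among the falls, Upk3b is at 1649 and 1064 CPM in the controls and 14.1 and 24.97 CPM in the mutants.

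Most mesothelial identity genes fell. Of 33 listed, 32 were tested, of which 23 fell (71.9%, against 2.9% of all tested genes) and none rose. Both mutant libraries lay below both controls for 27, against 28.2% of all tested genes. The median log2 change was -2.75 against 0.02 over all tested genes. The list was chosen with earlier results of these data known, so its counts and median are descriptions. Upk3b, a uroplakin of the mesothelial surface (chromosome 5, 136038496 to 136046487), was at 1649, 1064, 14.1 and 24.97 CPM. Both mutant libraries were far below both controls, with a log2 change of -5.998 ± 0.49 for Upk3b (edgeR adjusted p = 0.00621). Upk1b, the other uroplakin tested, was at 272, 207, 3.81 and 7.43 CPM and fell by 5.27 ± 0.43 (edgeR adjusted p = 0.00621).

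The largest of the named falls was that of Muc16, a large membrane mucin, which stood at 54.5, 37.7, 0 and 0.205 CPM, the last being 4 UMIs. Its log2 change was -8.29 ± 0.56, a value that rests on almost no mutant counts. Lrrn4, a leucine-rich repeat membrane protein, was at 228, 157, 1.99 and 5.59 CPM. Bnc1, a zinc finger transcription factor, was at 71.5, 45.4, 1.30 and 1.90 CPM. Both fell, Lrrn4 with a log2 change of -5.49 ± 0.55 (edgeR adjusted p = 0.00898) and Bnc1 with -5.03 ± 0.36 (edgeR adjusted p = 0.00586).

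The same size of fall was seen in enzymes and transporters. Car9, a carbonic anhydrase, stood at 82.0, 71.0, 0.953 and 1.08 CPM. Slc26a7, an anion transporter, stood at 170, 109, 4.85 and 3.13 CPM. The remaining genes among the 12 largest falls were Fxyd3, a regulator of the sodium pump, Bst1, a surface enzyme of NAD metabolism, Pnoc, the nociceptin precursor, Cldn15, a tight junction claudin, and the kinase Stk26, with log2 changes from -6.35 to -5.05.

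Some mesothelial genes did not pass. Msln, mesothelin, was at 135, 81.4, 86.0 and 36.9 CPM, and mutant library 1 lay between the controls (log2 change -0.76 ± 0.40, edgeR adjusted p = 0.393). Krt8 and Krt18, the keratin pair of simple epithelia, had log2 changes of 0.30 ± 0.35 and 0.58 ± 0.19 and did not pass. Krt19 and Krt7, keratins of the same kind, both fell. Krt19 was at 303, 268, 11.4 and 17.3 CPM (log2 change -4.20 ± 0.33, edgeR adjusted p = 0.00621), and Krt7 at 258, 227, 29.6 and 34.3 CPM (log2 change -2.83 ± 0.24, edgeR adjusted p = 0.00631).

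Among mesothelial and coelomic transcription factors, 3 of 29 tested fell (Bnc1, Sox6 and Myrf) and none rose. The share that fell was 10.3%, against 2.9% of all tested genes, and the median log2 change was -0.20. Sox6, an SRY-box factor, was at 21.0, 18.2, 1.73 and 0.923 CPM. Isl1, a LIM homeodomain factor, was at 13.0, 13.8, 6.15 and 6.31 CPM and did not pass (edgeR adjusted p = 0.0732). Wt1os, the RNA read from the strand opposite Wt1, fell from 35.7 and 20.4 to 6.33 and 3.54 CPM, but its reads cannot be told apart from those of Wt1 where counting does not use strand.

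Genes of smooth muscle contraction rose. Of 27 tested, 14 rose (51.9%, against 1.29% of all tested genes) and none fell, with a median log2 change of 1.54. Des, the muscle intermediate filament desmin (chromosome 1, 75360329 to 75368579), was at 25.7, 36.4, 1149 and 561 CPM. Acta2, smooth muscle actin, was at 56.3, 153, 1966 and 1410 CPM. Tagln, the actin-binding protein transgelin, was at 148, 212, 3035 and 1789 CPM. These 3 genes rose by 4.82 ± 0.42, 4.06 ± 0.55 and 3.80 ± 0.38 on the log2 scale (edgeR adjusted p = 0.00685, 0.0176 and 0.00898).

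Cnn1, the actin-binding calponin, was at 1.79, 11.6, 139 and 79.2 CPM, and Ramp1, a partner of the calcitonin receptor-like receptor, at 7.15, 12.52, 118 and 114 CPM. Lower in size but also past the test were Lmod1, an actin nucleator (log2 change 2.53 ± 0.46), Mylk, the kinase of myosin light chain (1.68 ± 0.32), and Actn1, alpha-actinin (1.54 ± 0.24). Myh11, the smooth muscle myosin heavy chain, was at 30.4, 79.4, 495 and 163 CPM and did not pass (edgeR adjusted p = 0.0849). The genotypes did not overlap for Myh11, but the libraries within each genotype lay far apart. With the Sftpc-rich barcodes of all libraries kept, Acta2, Cnn1, Fbxl22 and Actc1 lost their call, while Des, Tagln and Ramp1 kept theirs.

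Part of the striated sarcomere list moved as well. Of 38 listed genes, 23 were tested, of which 7 rose (30.4%, against 1.29% of all tested genes) and none fell. The median log2 change was 0.42. Among the genes that rose, Xirp2, Acta1 and Csrp3 had at most 0.223 CPM in each control. They passed the low-count filter only through the mutant libraries, so the share that rose is a description. Tnnt2, cardiac troponin T, was at 141, 102, 597 and 472 CPM and rose by 2.22 ± 0.26 on the log2 scale (edgeR adjusted p = 0.014). Actc1, the cardiac form of alpha-actin, was at 0, 7.22, 133 and 173 CPM (log2 change 5.13 ± 0.92, edgeR adjusted p = 0.0384). Its call was lost under DESeq2 as well as with Sftpc-rich barcodes kept. Xirp2, an actin-binding protein of the striated muscle disc, had no UMI in either control and 11.8 and 3.74 CPM in the mutants, which is at least 61.3-fold higher against a floor of 3 counts over the control group. Its call was lost with at least 2 Wt1 UMIs required. Csrp3, a LIM protein of the cardiac sarcomere, was at 0.223, 0.219, 5.63 and 2.67 CPM (log2 change 4.21 ± 0.63, edgeR adjusted p = 0.0243) and lost its call with only barcodes free of Sftpc UMIs. The other members of the list that rose were Acta1, Tnni2 and Pln. Acta1, the skeletal form of alpha-actin, had a log2 change of 4.66 ± 0.67. It was at 0.223, 0.0875, 3.38 and 2.61 CPM, with 1 and 2 UMIs in the controls. Tnni2, a skeletal troponin I, had a log2 change of 2.39 ± 0.40. For Pln, phospholamban, which restrains the calcium pump of muscle, it was 3.00 ± 0.54. Acta1 lost its call without mutant library 2.

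Myl7, the atrial myosin light chain, was at 85.8, 73.9, 50.8 and 127 CPM (log2 change 0.28 ± 0.46, edgeR adjusted p = 0.803). The 9 cardiomyocyte markers summed to 107, 87.1, 82.9 and 146 CPM, with Nkx2-5 at 0 UMIs in all 4 libraries and Nppb at 0 in 3. The skeletal muscle factors Myod1, Myog and Pax7 and the embryonic myosin Myh3 had no UMI in any library. Of 13 muscle transcription factors and SRF cofactors tested, only Myocd, which encodes myocardin, passed (7.69%, against 4.19% of all tested genes). Myocd stood at 11.2, 14.7, 68.9 and 43.9 CPM and rose by 2.15 ± 0.26 on the log2 scale (edgeR adjusted p = 0.015). Mef2c, its partner in muscle, was at 78.4, 82.7, 155 and 145 CPM and did not pass here (edgeR adjusted p = 0.0528), though it did under DESeq2 and with at least 2 or 3 Wt1 UMIs required.

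**Figure D2:**
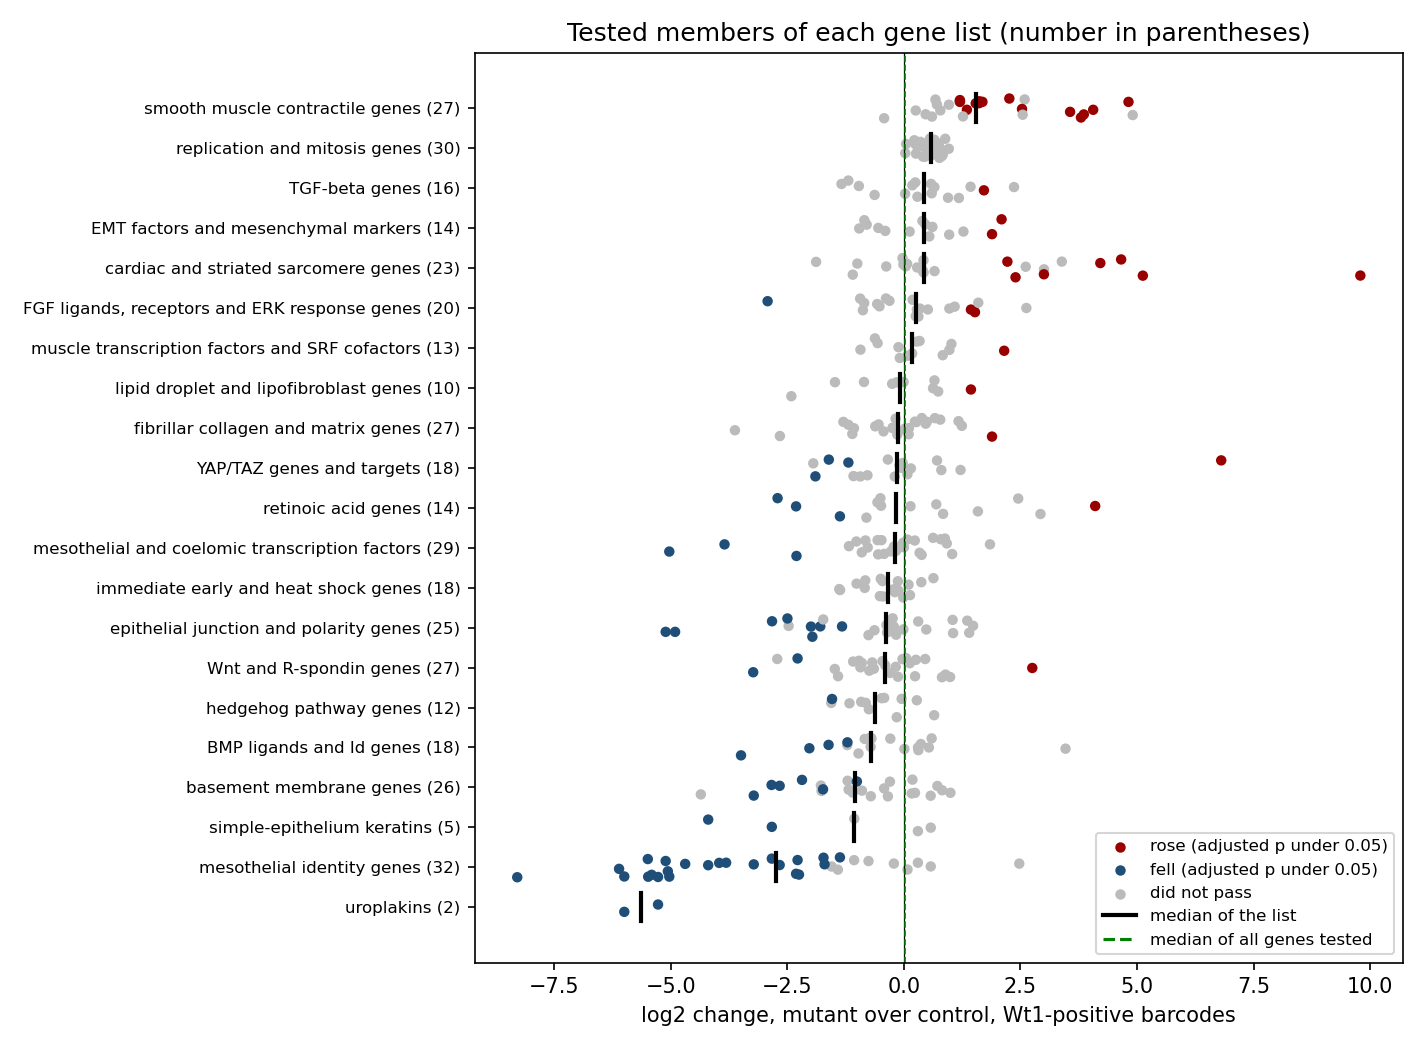
Log2 change of the tested members of each gene list in Wt1-positive barcodes, mutant over control, 1 point per gene; black bars are list medians and the dashed line is the median of all genes tested (0.02). The mesothelial identity list has its median at -2.75 and the smooth muscle list at 1.54.

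The promoters of an uroplakin that fell and an actin that rose are shown because the members they stand for moved in opposite directions. Sequences are RefSeq windows of 250 bases before to 50 bases after the annotated start on GRCm38.p6 (the assembly of mm10), read in the direction of transcription. Capitals mark matches to motifs searched on both strands. These were CTGGCAC or CTGGTAC, bound by Myrf, CATTCC, bound by TEAD factors, and the CArG box, bound by SRF. The CArG box was searched only as CCWWWWWWGG, where W is A or T, with no mismatch allowed. Strings that differ from it by a base, such as ccctatatgg in the windows of Actc1 and Acta2, were neither marked nor counted. The motifs overlap none of each other in the windows printed.
Upk3b, chr5:136038246-136038545, plus strand, with CATTCC and CTGGCAC in capitals: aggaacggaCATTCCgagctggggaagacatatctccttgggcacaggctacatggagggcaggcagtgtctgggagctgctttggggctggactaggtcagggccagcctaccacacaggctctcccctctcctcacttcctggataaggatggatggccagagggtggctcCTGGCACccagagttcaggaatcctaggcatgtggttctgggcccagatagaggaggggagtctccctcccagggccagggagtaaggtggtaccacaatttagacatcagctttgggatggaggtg
Actc1, chr2:114052826-114053125, minus strand, with the CArG box in capitals: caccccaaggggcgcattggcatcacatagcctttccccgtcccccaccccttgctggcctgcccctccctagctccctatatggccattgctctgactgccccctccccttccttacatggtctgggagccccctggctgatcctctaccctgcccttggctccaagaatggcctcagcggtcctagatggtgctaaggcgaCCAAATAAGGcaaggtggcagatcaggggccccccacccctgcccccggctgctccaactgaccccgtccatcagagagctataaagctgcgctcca

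The CTGGCAC of Upk3b began 77 bases before the annotated start, and the CArG box of Actc1 began 47 bases before it. Of the 12 largest rises 11 had a window, and 2 of these (Actc1 and Fbxl22) held a CArG box, as did 1.81% of all 26994 genes with a window. None of the 8 falls with a window held a CArG box. CTGGCAC or CTGGTAC was found in 1 of the 11 rises (Mrvi1) and 1 of the 8 falls (Upk3b), against 8.10% of all genes. CATTCC was found in 4 of the 11 rises and 4 of the 8 falls, against 16.6% of all genes. These matches describe the letters in a short window only, and a window without a CArG box here can still hold a near match.

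The opposite moves were visible barcode by barcode. A UMI of Upk3b was present in 93.7, 89.3, 16.3 and 7.66% of Wt1-positive barcodes, a mean of 79.5 percentage points lower in the mutants. A UMI of Des was present in 38.1, 36.7, 96.1 and 79.0%, a mean of 50.1 points higher. In Wt1-zero barcodes, at median depths of 25072, 17733, 31377 and 15537 UMIs, the shares were 21.3, 51.6, 2.84 and 1.04% for Upk3b and 38.2, 39.1, 68.7 and 44.1% for Des. The Des share in control members was thus no higher than in control Wt1-zero barcodes. Summed over barcodes with endothelial markers, which should lack both genes, Upk3b was at 3.75, 132, 0 and 0 CPM and Des at 0, 3.37, 47.5 and 4.91 CPM.

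After thinning, the shares in members were 95.3, 88.1, 6.49 and 6.20% for Upk3b and 21.2, 21.7, 79.2 and 70.1% for Des. Neither gene's shares overlapped between the genotypes, and the two-sided exact permutation test over libraries gave p = 0.333 for each, the smallest that 2 against 2 libraries allow.

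Seen together in the same barcode, Des without Upk3b described 3.17, 5.47, 79.8 and 72.3% of members. Upk3b without Des described 58.7, 58.0, 0 and 0.993%. The 0 of 178 barcodes allows a share of up to 1.69%, a limit that covers counting error of barcodes without a Des UMI and not cells without Des RNA, since Des was also at 47.5 CPM in the endothelial-marker barcodes of that library. Both genes were found in 34.9, 31.3, 16.3 and 6.67%, and neither in 3.17, 5.26, 3.93 and 20%. With at least 3 Wt1 UMIs required, Des without Upk3b still described 77.5 and 74.8% of the mutant members and 1.12 and 2.38% of the control members.

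**Figure D3:**
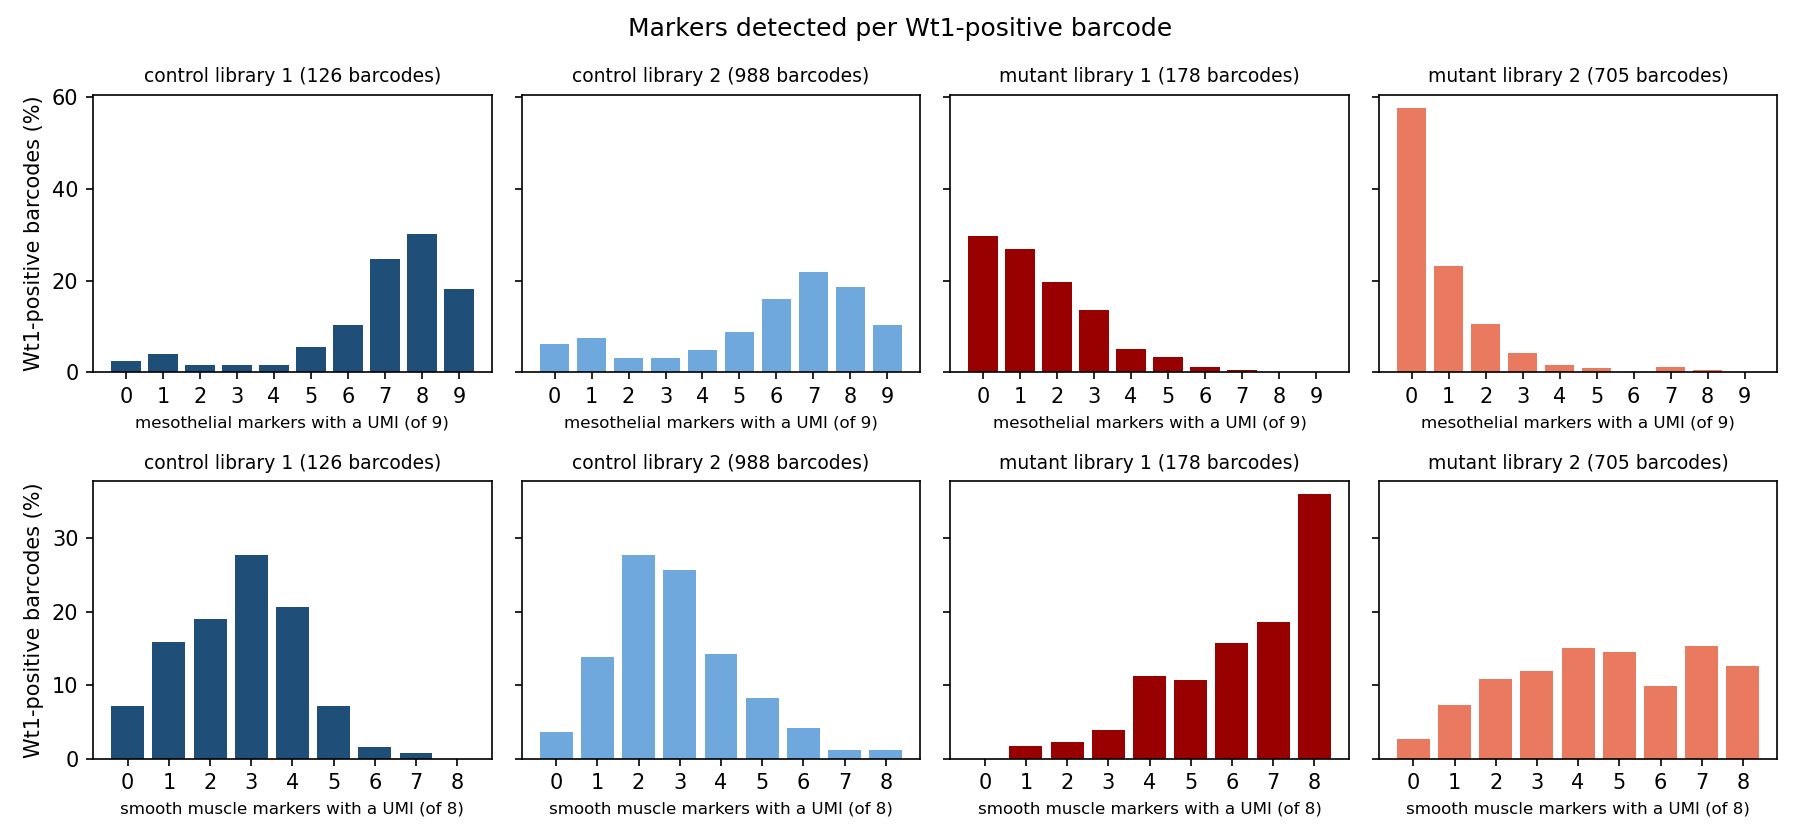
Share of Wt1-positive barcodes (%) by the number of mesothelial markers other than Wt1 (top, of 9) and smooth muscle markers (bottom, of 8) with at least 1 UMI, by library. Median mesothelial markers are 7 in both controls and 1 and 0 in the mutants, and median smooth muscle markers are 3 in both controls and 7 and 5 in the mutants.

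The median member held 7, 7, 1 and 0 of the 9 mesothelial markers and 3, 3, 7 and 5 of the 8 smooth muscle markers. After thinning, the medians were 6, 6, 0 and 0 mesothelial markers and 2, 2, 5 and 4 smooth muscle markers. A small set of mutant members carried at least 5 mesothelial markers, namely 9 of 178 and 21 of 705, against 112 of 126 and 746 of 988 in the controls. Upk3b is among the markers that define this set, so its values there are a description. The set held 76.7 and 87.5% of all Upk3b UMIs of the mutant members, and Upk3b was at 171 and 465 CPM inside it and at 3.52 and 3.28 CPM in the other mutant members. Des, which did not define the set, was at 1723 and 305 CPM in it, against 22.2 and 31.8 CPM in the control barcodes with at least 5 markers. In the other mutant members Des was at 1110 and 574 CPM, below the set in mutant library 1 and above it in mutant library 2. After thinning, 1 of 77 and 6 of 355 mutant members held at least 5 mesothelial markers. Myrf was at 43.7 and 42.6 CPM in the mutant set and at 139 and 93.0 CPM in the control set.

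The gap between the genotypes held across classes of Wt1 level. Among barcodes with exactly 1 Wt1 UMI, Upk3b stood at 935, 775, 9.34 and 18.7 CPM, and among those with 4 or more at 1727, 1183, 24.3 and 58.0 CPM. Des was at 42.7, 47.2, 1000 and 470 CPM with exactly 1 Wt1 UMI and at 28.1, 28.9, 1379 and 685 CPM with 4 or more. Acta2 ran in opposite directions in the genotypes. In the controls it was lower with 4 or more Wt1 UMIs (16.46 and 48.7 CPM) than with 0 (553 and 809 CPM), and in the mutants it was higher (2368 and 1468 CPM against 1215 and 997 CPM). These classes share their libraries and depend on depth, and no test was made between them.

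**Figure D4:**
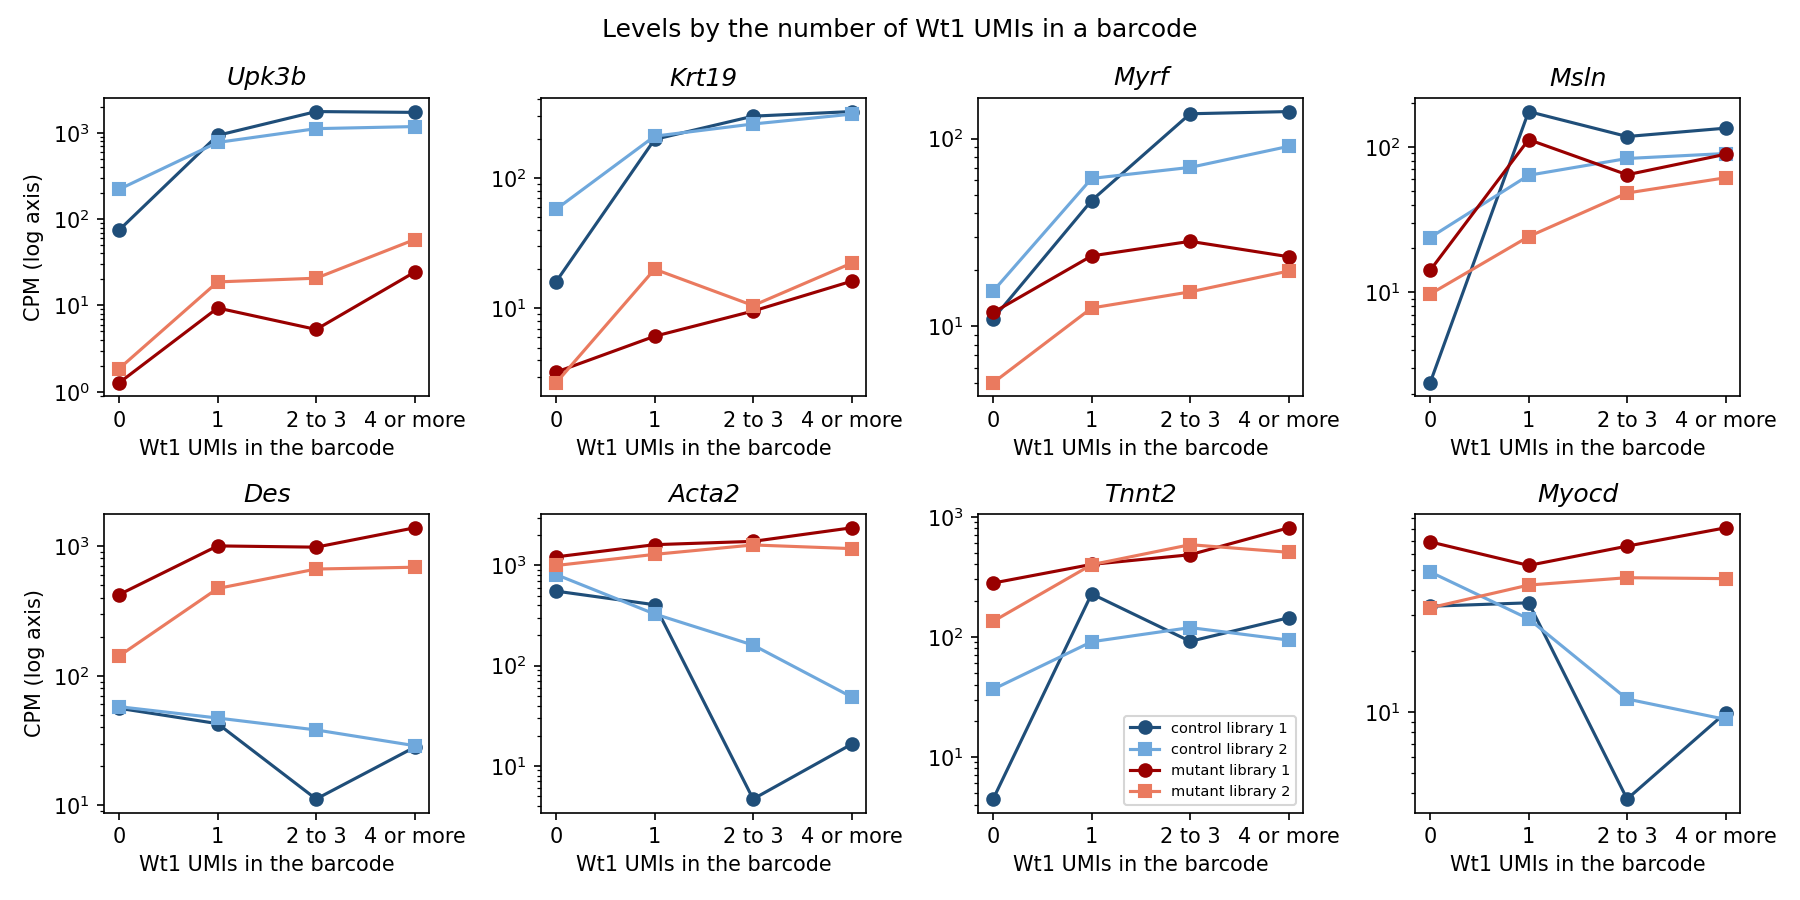
Level of 8 genes (CPM, log axis) in barcodes with 0, 1, 2 to 3, or 4 or more Wt1 UMIs, 1 line per library. Upk3b lies higher in the controls at every class, Des lies higher in the mutants, and Acta2 with 4 or more Wt1 UMIs is 16.46 and 48.7 CPM in the controls and 2368 and 1468 CPM in the mutants.

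Wt1-zero barcodes of the same libraries were set beside the members, and the difference between the 2 mutant effects was tested as an interaction. Of 14964 genes tested, 87 passed (0.581%; edgeR quasi-likelihood test, adjusted p under 0.05), 54 with a more positive effect in Wt1-positive barcodes and 33 with a more negative one. Of the 87 genes, 53 also differed among the members themselves. The more positive ones included 10 of the 27 listed smooth muscle genes, among them Acta2, Cnn1, Des, Tagln, Myh11 and Mylk. Of all genes tested for the interaction, 0.361% passed with a more positive effect. From the mesothelial identity list of 33 genes, 1 passed, with a more negative effect. Both lists were chosen with earlier results of these data known, so these counts are descriptions. Acta2 was at 553, 809, 1215 and 997 CPM in Wt1-zero barcodes, where its log2 change was 0.76, and the effect in the members was larger by 3.40 ± 0.30 (edgeR adjusted p = 0.0153). In members Acta2 was at 56.3, 153, 1966 and 1410 CPM, below Wt1-zero barcodes in the controls and above them in the mutants. The gap in the controls was the larger on the log2 scale, so the 3.40 rests mostly on low control members. For Mylk the effect in the members was larger by 1.72 ± 0.17 on the log2 scale.

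The number of these calls depended on the libraries used. It was 746 without control library 1, 1956 without control library 2, 13 without mutant library 1 and 1 without mutant library 2. Each of these fits leaves a group with 1 library, which is assumed to vary like the others, so a call lost there does not show a smaller difference. Of the 10 interaction genes chosen by the naming rule, all lost the call without mutant library 2 and 6 lost it without mutant library 1, while the sign of the log2 difference stayed in each of these fits. Upk3b, whose log2 change was -5.998 in members and -6.33 in Wt1-zero barcodes, was not among the 87. In Wt1-zero barcodes Upk3b was at 74.8, 222, 1.27 and 1.85 CPM, so its mutant level was lower there too. Those barcodes were chosen by a missing Wt1 UMI and not by cell type. At least 5 mesothelial markers were found in 3 of 136, 126 of 739, 0 of 211 and 3 of 3661 of them. Wt1 was also lower in the mutant members, so the rule can divide the genotypes differently. Whether the lower Upk3b extends to cells without Wt1 was not tested.

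Genes of epithelial junctions and polarity fell in part. Of 25 tested, 8 fell (32%, against 2.9% of all tested genes) and none rose, with a median log2 change of -0.37. Crb2, an apical polarity protein, was at 31.9, 20.7, 0.693 and 0.872 CPM and fell by 4.91 ± 0.35. Pard6b, of the apical Par complex, was at 56.3, 43.8, 7.80 and 5.59 CPM. Ezr, ezrin, which ties microvilli to actin, was at 521, 361, 113 and 100.2 CPM. Both were lower in each mutant library than in either control with log2 changes of -2.83 ± 0.23 for Pard6b and -1.96 ± 0.26 for Ezr (edgeR adjusted p = 0.00621 and 0.0168).

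Of 26 basement membrane genes, 6 fell (23.1%, against 2.9% of all tested genes) and none rose, and the median log2 change was -1.05. Npnt, the integrin ligand nephronectin, was at 1159, 843, 183 and 119 CPM, and Frem2, a component of the Fraser complex that anchors epithelia, at 808, 509, 82.7 and 52.2 CPM. Both fell, with log2 changes of -2.66 ± 0.30 for Npnt and -3.22 ± 0.34 for Frem2 (edgeR adjusted p = 0.0129 and 0.01). Fras1, another Fraser complex member, fell with a log2 change of -1.73 ± 0.31. The laminin chains Lama3 and Lamb3 fell from low levels, with Lamb3 at 26.8, 18.0, 5.11 and 4.10 CPM. Lama3 lost its call with Sftpc-rich barcodes kept, and Lamb3 with only barcodes free of Sftpc UMIs. Col4a1, a type IV collagen chain, was at 591, 411, 1303 and 417 CPM and did not pass. Of 27 fibrillar collagen and matrix genes only Tnc, tenascin C, passed (3.70%, against 4.19% of all tested genes), at 17.6, 19.8, 91.9 and 43.5 CPM (log2 change 1.89 ± 0.33). Col6a5, a type VI collagen chain, was at 130, 67.1, 23.9 and 6.61 CPM (edgeR adjusted p = 0.0677), and Fbln5, fibulin 5, had an edgeR adjusted p of 0.0539. Both passed under DESeq2.

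Among 14 factors and markers of epithelial-mesenchymal transition, 2 rose (14.3%, against 1.29% of all tested genes) and none fell. They were Tnc and S100a4, a calcium-binding protein of motile cells, at 5.81, 5.34, 24.4 and 20.5 CPM (log2 change 2.10 ± 0.21, edgeR adjusted p = 0.00898). Fn1, fibronectin, was at 121, 179, 504 and 206 CPM and did not pass (edgeR adjusted p = 0.174). The fibroblast markers summed to 11205, 10360, 9541 and 6525 CPM. Tcf21, a factor of lung fibroblasts, was low in the members, at 6.25, 12.6, 3.38 and 24.0 CPM, against 184, 83.6, 25.5 and 71.8 CPM in Wt1-zero barcodes.

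Several signalling genes differed. Fgf9, a growth factor that the mesothelium makes for the mesenchyme, was at 180, 126, 20.7 and 17.4 CPM, a log2 change of -2.92 ± 0.25 (edgeR adjusted p = 0.00628). In the FGF list of 20 tested genes, Fgf10, a mesenchymal ligand, and Etv1, a target of FGF signalling, rose. With Fgf9, 15% of this list passed, against 4.19% of all tested genes. Fgf10 was at 9.60, 11.9, 25.7 and 30.1 CPM and Etv1 at 16.3, 27.4, 63.7 and 58.7 CPM. Both genes lost their call without control library 1 and without mutant library 2 (edgeR).

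In the retinoic acid list of 14 tested genes, 3 fell and 1 rose (28.6% passed, against 4.19% of all tested genes). Aldh1a2, which makes retinoic acid, was at 1062, 744, 206 and 140 CPM and fell by 2.31 ± 0.30 (edgeR adjusted p = 0.016). Aldh1a1, a related enzyme, fell as well, with a log2 change of -2.71 ± 0.40. Cyp26b1, which breaks retinoic acid down, was at 0, 1.05, 14.6 and 11.4 CPM and rose by 4.10 ± 0.63 (edgeR adjusted p = 0.0257). The third fall was Rarres2, the retinoid-responsive gene of chemerin, at 399.8, 373, 159 and 125 CPM (log2 change -1.37 ± 0.22, edgeR adjusted p = 0.028). Rarres2 lost its call without control library 1, control library 2 or mutant library 2.

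In the Wnt list, Rspo1, an R-spondin that strengthens Wnt signalling, and the ligand Wnt2b fell, and Lgr6, an R-spondin receptor, rose. They were 11.1% of the 27 tested genes of the list, against 4.19% of all tested genes. Rspo1 was at 299, 247, 51.4 and 54.1 CPM, and Lgr6 at 3.13, 6.39, 47.0 and 21.4 CPM. Of 18 BMP genes 4 fell (22.2%, against 2.9% of all tested genes) and none rose, with a median log2 change of -0.70. They were Id4, a target of BMP signalling, at 199, 144, 40.4 and 38.7 CPM, the ligands Bmp6 and Bmp7, and Smad6, an inhibitor of the pathway. Gas1, a hedgehog co-receptor, was at 363, 300.4, 111 and 104 CPM, with a log2 change of -1.54 ± 0.22. It was the only one of 12 hedgehog genes to pass (8.33%, against 4.19% of all tested genes). Bmp7, Smad6 and Gas1 lost their call without control library 1, and Bmp7 and Smad6 also without mutant library 2.

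Of 16 TGF-beta genes only Pmepa1, a feedback target of the pathway, passed (6.25%, against 4.19% of all tested genes). Pmepa1 was at 81.3, 119, 353 and 277 CPM. It lost its call without control library 1. Of 18 YAP/TAZ genes and targets, Amotl2, Ajuba and Crim1 fell and Ankrd1, a muscle ankyrin repeat protein, rose (22.2% passed, against 4.19% of all tested genes). Ankrd1 was at 0, 0.394, 66.0 and 7.69 CPM, so that its mutant libraries lay far apart. Ajuba and Crim1 lost their call without control library 1 and without mutant library 2. With Sftpc-rich barcodes kept, Etv1, Lgr6, Smad6, Bmp7, Pmepa1, Ajuba, Crim1 and Ankrd1 lost their call. With only barcodes free of Sftpc UMIs, Fgf10, Etv1, Lgr6 and Bmp7 did. Smad6 also lost its call after thinning and with 126 barcodes drawn from each library, and Bmp7 with at least 3 Wt1 UMIs required. Ankrd1 lost its call when at least 2000 genes and at most 10% mitochondrial UMIs were required.

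None of 30 replication and mitosis genes passed (edgeR), yet all 30 had a positive log2 change, with a median of 0.58. Both mutant libraries were above both controls for 18 of them, against 19.3% of all tested genes. Bub1b, a kinase of the spindle checkpoint, was at 25.9, 31.8, 55.5 and 46.9 CPM (edgeR adjusted p = 0.0689). None of 18 immediate early and heat shock genes passed either, among them Atf3, a stress-induced factor, at 456, 620, 253 and 251 CPM (edgeR adjusted p = 0.0984).

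The remaining genes among the 12 largest rises were Crispld2, Fbxl22, Pde1a, Mrvi1, Dcx and Nrtn. None of them was on the smooth muscle or the striated sarcomere list. For Fbxl22 and Mrvi1 the edgeR adjusted p was 0.0293 and 0.0354. Crispld2, a secreted protein of mesenchyme, was at 4.47, 6.30, 132 and 42.2 CPM, and Pde1a, a calcium-dependent phosphodiesterase, at 6.03, 10.6, 74.3 and 46.8 CPM. Nrtn, the neurotrophic factor neurturin, was at 6.92, 8.84, 48.3 and 45.8 CPM and had the smallest SE of the 12 (log2 change 2.62 ± 0.22, edgeR adjusted p = 0.00628). Dcx, the microtubule-binding protein doublecortin, was at 3.57, 7.49, 29.8 and 40.8 CPM. Dcx and, among the falls, Stk26 lie on the X chromosome, and of the members with reads of only Xist or only Y-linked genes, 21.2, 61.8, 70.9 and 86.3% had Xist. The part of this sex mix in these 2 results was not tested.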

How the data were processed

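Single-cell RNA of sorted lung cells was measured in 4 libraries (2 Myrf mutant, 2 Cre control), grouped and numbered by their titles. The deposited values are integer UMI counts for each gene in each barcode, not normalized. The authors made them with Cell Ranger 6.0.2 on mm10, per the submitters' processing notes; the annotation release, barcode calling settings and use of strand are not given in the sources used here. Gene locations come from GENCODE vM21 (mm10). Members were chosen by the limits given above.

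UMIs were summed per library, since cells are not replicates, and tested with edgeR 4.0.16 in R 4.3.3 (filterByExpr, TMM, glmQLFit and glmQLFTest, two-sided, no covariate; adjusted p under 0.05). Levels are CPM of all summed UMIs. A gene could pass filterByExpr through the libraries of 1 genotype alone, so shares of a list that passed are descriptions. The SE is the log2 change divided by the square root of its F value. The interaction used Wt1-positive and Wt1-zero sums with a term for each library. Replicate libraries were not repeats of each other (chi-square over its degrees of freedom 32.4 in controls and 73.2 in mutants). Doublets were kept; Scrublet in scanpy 1.11.5 marked 7 barcodes by its own threshold and so did not work, and the highest scores, at 0.8% per 1000 barcodes, were removed as an alternative. Tested on simulated data, the comparison of 14250 genes recovered 24, 92, 96 and 100% of genes changed 2-, 4-, 8- and 16-fold. It made 5 false calls. The interaction over 14628 genes recovered 48, 92, 96 and 98%, with 4 false calls. Changed genes were drawn only from those with more than 5 expected counts in the smallest library. The simulation used the trended dispersion and held no effect shared by same-numbered libraries. Its rates therefore do not cover genes at lower counts or such an effect.

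Named genes are Myrf, the 12 largest rises and 12 largest falls past the threshold with both mutant libraries on 1 side of both controls and a mean of 20 CPM or more (95 genes that rose and 204 that fell met this), up to 4 members of each of 21 lists by smallest p, and the 5 most positive and 5 most negative interactions. Other list members named in the text were chosen after their values were seen. The members and lists were chosen with earlier results of these data known. Alternatives changed the normalization, the filter on low counts, the tool, the limits on Wt1, Sftpc, quality, doublets and other lineages, the depth, the number of barcodes and the libraries used. Sequences of TdTomato and Cre are not analysed here.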

Additional observations from a re-analysis of the deposited data

Results flagged for a closer look

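The interaction test compared the mutant effect in Wt1-positive barcodes with that in Wt1-zero barcodes. The naming rule took 10 genes only from those that passed (edgeR quasi-likelihood test, Benjamini-Hochberg adjusted p from 0.0142 to 0.048). That all 10 passed is therefore not a further result. Values are log2 effects in members minus log2 effects in Wt1-zero barcodes. They were 4.25 for Actc1, 3.40 for Acta2, 3.35 for Crispld2, 3.17 for Cnn1 and 3.00 for Lgr6. Lgr6 was at 37.1, 34.7, 48.4 and 14.3 CPM in Wt1-zero barcodes, so the lower level in control members (3.13 and 6.39 CPM) set its value. Actc1, Acta2, Crispld2 and Cnn1 were also lower in control members than in Wt1-zero barcodes of the same control library. In each mutant library they were higher in members, so both gaps enter their values.

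The more negative effects were -1.84 for Plagl1, a zinc finger factor that is imprinted, -1.81 for Npnt, -1.79 for Ptn, the growth factor pleiotrophin, -1.77 for Colec11, a collectin, and -1.77 for Dab2, an endocytic adaptor. Plagl1 was at 1573, 1226, 303 and 326 CPM in members and at 328, 425, 342 and 268 CPM in Wt1-zero barcodes. Ptn was at 355, 947, 366 and 546 CPM in members, where the genotypes overlapped. None of the 10 kept its call without mutant library 2, and 4 of them (Acta2, Crispld2, Cnn1 and Lgr6) kept it without mutant library 1. Ptn and Dab2 lost it under RLE normalization, Colec11 after thinning, and Actc1 and Lgr6 with only Wt1-positive barcodes free of Sftpc UMIs.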

How the results depend on the processing

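Of 14563 genes, 610 differed as reported, and the count was 2019 with no filter on low counts, 1161 with DESeq2 (608 shared), 1013 with at least 3 Wt1 UMIs and 376 with Sftpc-rich barcodes kept (374 shared). Leaving out 1 library gave 489 to 1240 genes. Other alternatives gave 582 to 848, the lowest being the one restricted to barcodes without Sftpc UMIs, which was chosen after seeing the data. Every gene shared with the reported calls kept its direction. Of 63 named genes that passed, 43 passed in every alternative in which they were tested, among them Upk3b, Lrrn4, Krt19, Des, Tagln, Myocd, Tnnt2, Fgf9 and Myrf. The causes of the lost calls were not tested.

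With the replicate block, 2721 genes differed (1164 rose and 1557 fell), including all 610. Deviations of same-numbered libraries correlated at r = 0.56, a value that 2 groups of 2 make equal for both pairs, and the labels name no shared litter or day. Same-numbered libraries also resembled each other in size, with 418 and 488 deposited barcodes against 3969 and 4711, and whether the numbers mark a batch was not tested.

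The interaction was called for 87 genes as reported, for 195 with at least 2 Wt1 UMIs, 350 after thinning and 1506 with no filter on low counts, and for 477 with at least 3 Wt1 UMIs (chosen after seeing the data). Leaving out 1 library gave 1 to 1956 genes. Differences in shares ranged from -83.8 to -75.2 percentage points for Upk3b, 41.6 to 58.6 for Des and -36.5 to -6.89 for the Wt1-positive share with 1 library left out. List medians moved beyond their spread in 27 of 147 alternatives and changed sign in 6. At 2-fold, the simulated comparison recovered 24% of changed genes, so small changes can be missed.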

Other observations

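Within each library, genes were ranked by the ratio of their mean level in Wt1-positive barcodes to that in Wt1-zero barcodes, among genes at 20 CPM or more in the members of both libraries of the genotype. In control library 1 the leading genes included Muc16 and Bnc1, which were at 54.5 and 71.5 CPM in its Wt1-positive barcodes and held 1 and 6 UMIs in its 136 Wt1-zero barcodes, too few for a ratio. In control library 2 the highest ratio was 5.70, and Stk26 and Fgf9 stood at 4.63 and 4.62. The 10 leading genes of the control libraries shared no gene.

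In the mutants, Igfbp6, an insulin-like growth factor binding protein, was the only gene among the 10 leading genes of both libraries, with ratios of 7.69 and 4.84. The 3 highest ratios in mutant library 1 belonged to haemoglobin genes (Hbb-bt, Hbb-bs and Hba-a1). Hbb-bs was at 483 CPM in its Wt1-positive barcodes and 2.82 CPM in its Wt1-zero barcodes. In mutant library 2, where Hbb-bs was at 71.3 and 245 CPM, the order was the opposite. The leading genes of mutant library 2 were Myl7 and Krt7, with ratios of 6.76 and 5.93.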
